A study of Mus musculus with 4 samples.

Results

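The replication-dependent histone genes were taken as the gene symbols of the count tables that begin with Hist1h, Hist2h, Hist3h or Hist4h, and 69 of 35976 symbols met this rule. They hold 6 linker histone H1 genes, 19 H2a, 19 H2b, 12 H3 and 13 H4 genes. By the cluster named in the symbol, 55 are Hist1, 10 Hist2, 3 Hist3 and 1 Hist4 genes. Bulk RNA-seq libraries of sorted mouse thymocytes were compared, 2 from Cxxc1 knockout (KO) mice (Cxxc1 F/F with Lck-cre) and 2 from control mice (Cxxc1 +/+ with Lck-cre), so that both genotypes carried the Lck-cre transgene, which is active in developing T cells. The cells were CD4 and CD8a double positive (DP), CD24 positive and TCRb negative. Cxxc1 encodes a CpG-binding subunit of the SETD1 complexes that methylate lysine 4 of histone H3. Strain, age and sex were not given, and the labels do not tell whether the 2 libraries of a genotype came from separate mice, so p-values measure the spread between these libraries, which may be technical. Double-negative thymocytes, which the design also names, were not analysed here.

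Replication-dependent histone genes supply the histones that package newly copied DNA, and their mRNA is abundant in S phase and scarce outside it. Most have no introns and sit in clusters, where the coactivator Npat drives them. Their mRNAs end in a short stem loop in place of a poly(A) tail. The protein Slbp binds the stem loop, and a complex that holds the U7 small nuclear RNA cuts the precursor just after it. Replication-independent variants such as H2afz and H3f3b come from separate, mostly spliced and polyadenylated genes. In the thymus, DP cells that have just left the double-negative stage divide rapidly, and later DP cells rest. In bulk RNA, fewer cells in S phase and less histone mRNA per cell cannot be told apart.

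Total counts were 36243182 and 33544428 in KO 1 and KO 2, and 12150508 and 34820446 in control 1 and control 2. Control 1 was therefore the shallowest library, and it also stood apart in the histone genes, as described with the results. Levels are given as CPM, the counts of a gene scaled to a common library total adjusted by TMM. Cxxc1 itself had 35.7 and 39.4 CPM in KO 1 and KO 2, against 111 and 53.5 CPM in control 1 and control 2. Its log2 fold change was -1.12 ± 0.34 (SE), with an edgeR adjusted p of 0.199, and both KO libraries lay below both controls. Which exons are floxed is not stated in the sources used here. Of 7 DP markers, Cd4 and Cd8a were called lower, and their list summed to 4466 and 6752 CPM in KO 1 and KO 2, against 9034 and 12196 CPM in control 1 and control 2. Most of this sum was Rag1, which was not called, at 2997 and 4488 CPM in the KO libraries, against 4967 and 7055 CPM in the controls. Cd8b1 had a log2 fold change of -1.60 and was not called. Those of Rag2, Cd3e and Cd24a were -0.13, -0.19 and -0.16. Of 5 double-negative markers, Il2ra and Il7r were called higher, and that list summed to 252 and 138 CPM in KO 1 and KO 2, against 46.8 and 49.3 CPM in control 1 and control 2. Most of the KO sum was Il2ra, at 201 and 97.02 CPM in the KO libraries, against 9.84 and 9.03 CPM in the controls. Cd44 lay the other way, with 11.7 and 15.003 CPM in the KO libraries, against 30.3 and 35.2 CPM in the controls (log2 fold change -1.30 ± 0.32 (SE), edgeR adjusted p = 0.124), and the log2 fold change of Flt3 was -0.91 (edgeR adjusted p = 0.842). No B cell, myeloid or thymic stroma marker was called. The 4 B cell markers summed to 1.55 to 2.44 CPM in KO and 2.34 to 2.69 CPM in control libraries, with Ms4a1 at 0 in all libraries but KO 2. The 5 myeloid markers summed to 26.1 to 44.1 CPM in KO and 15.1 to 28.0 CPM in control libraries, with Cd14 at 0 in all libraries but control 2. The 5 thymic stroma markers summed to 13.3 to 18.4 CPM in KO and 6.73 to 12.8 CPM in control libraries. Epcam made up most of the KO sum, at 11.6 and 15.1 CPM in the KO libraries, against 1.09 and 4.88 CPM in the controls, while the other 4 had fold changes below 0. Of those, Foxn1 and Psmb11 were lower in both KO libraries than in both controls, and Psmb11, the thymoproteasome subunit of cortical epithelium, had 0.0574 and 0 CPM in the KO libraries, against 1.18 and 1.38 CPM in the controls. The 6 erythroid markers summed to 38.0 and 26.2 CPM in KO 1 and KO 2, against 8.66 and 14.0 CPM in control 1 and control 2, with all 4 globin genes at 0 in both controls and Hba-a1 called higher. The part of these differences in the histone values was not tested.

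All 69 symbols matched a gene of the GENCODE vM21 annotation (GRCm38), and 63 had a single exon. Hist3h2bb-ps and Hist1h2al are annotated as pseudogenes. A stem loop was searched for after the stop codon of each annotated transcript as GGNNCTTTTNAGNNCC on the transcript strand, with the 6 bases of each arm complementary around a loop of 4 bases. It was found in 44 of the 69 genes, 21 to 58 bases after the stop codon. Among 21877 protein-coding gene names, 48 (0.219%) carried it, and the 4 that are not members were H2afx, H2bfm, Nova2 and Syncrip. The sequences below are shown because this element is the feature of histone mRNA that the processing machinery recognises, with capitals marking the stem loop and lower case the flanking bases.
Hist1h1c: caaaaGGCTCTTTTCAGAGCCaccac
Hist2h2aa1: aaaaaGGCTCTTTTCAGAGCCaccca
Hist2h2ac: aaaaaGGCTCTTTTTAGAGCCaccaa
Hist1h2bf: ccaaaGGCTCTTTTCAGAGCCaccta
Hist1h3e: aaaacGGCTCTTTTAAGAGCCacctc
Hist1h4d: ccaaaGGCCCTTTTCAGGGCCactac
Hist2h4: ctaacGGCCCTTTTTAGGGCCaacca
Hist1h4j: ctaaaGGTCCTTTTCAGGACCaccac
The core of Hist1h1c, Hist2h2aa1 and Hist1h2bf was the commonest, in 26 genes (3 H1, 10 H2a, 8 H2b and 5 H3). The core of Hist1h3e, which differs within the loop, was found in 6 genes of H1, H2b and H3. Every H4 gene with a stem loop had another stem: 7 had the core of Hist1h4d, 2 that of Hist2h4 and 2 that of Hist1h4j. Hist2h2ac was the single gene with its core. No match says only that these letters are not in the annotated transcript.

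Promoters, taken as the 250 bases before the RefSeq start on GRCm38.p6, were available for 60 members, as 61 promoters. They were searched on both strands for CCAAT, for TATAAA, an element that positions the start of transcription, and for ATTTGCAT, the octamer bound by Pou2f1. CCAAT was found in 82.0% of member promoters, against 33.8% of 32851 promoters in the table. TATAAA was found in 47.5%, against 12.4%, and ATTTGCAT in 23.0%, against 1.6%. These shares count a match anywhere in the window, such as TATAAA with its first base at -212 from the start in Hist1h2bp. They are not shares of promoters with TATAAA close to the start. The classes differed in these letters: CCAAT was in every H1, H2a and H2b promoter, in 8 of 10 H3 promoters and in 3 of 12 H4 promoters. ATTTGCAT was found in 7 H2a and 7 H2b promoters and in no H1, H3 or H4 promoter. The windows of neighbouring H2a and H2b genes can overlap, and the same letters are then counted for both genes. The octamer is such a shared site for Hist1h2ah with Hist1h2bk, Hist1h2ae with Hist1h2bg and Hist1h2aa with Hist1h2ba. Such matches are descriptions and do not show that a factor was bound. Of the 4 promoters below, 1 for each of H1, H2a, H3 and H4, capitals mark matches to these motifs on either strand. Their positions are Hist1h1e chr13:23622559-23622808 (minus strand), Hist2h2ac chr3:96220881-96221130 (minus strand), Hist1h3b chr13:23752095-23752344 (plus strand) and Hist1h4d chr13:23581318-23581567 (plus strand).
Hist1h1e: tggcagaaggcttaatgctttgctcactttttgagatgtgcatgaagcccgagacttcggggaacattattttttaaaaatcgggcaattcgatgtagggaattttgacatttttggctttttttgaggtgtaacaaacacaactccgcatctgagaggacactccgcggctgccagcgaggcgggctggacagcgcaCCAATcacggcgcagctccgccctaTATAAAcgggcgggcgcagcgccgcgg
Hist2h2ac: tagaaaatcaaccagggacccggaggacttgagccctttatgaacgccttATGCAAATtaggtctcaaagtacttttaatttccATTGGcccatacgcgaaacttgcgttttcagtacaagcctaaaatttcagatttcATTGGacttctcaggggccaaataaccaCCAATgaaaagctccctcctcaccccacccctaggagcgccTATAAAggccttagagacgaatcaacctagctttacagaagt
Hist1h3b: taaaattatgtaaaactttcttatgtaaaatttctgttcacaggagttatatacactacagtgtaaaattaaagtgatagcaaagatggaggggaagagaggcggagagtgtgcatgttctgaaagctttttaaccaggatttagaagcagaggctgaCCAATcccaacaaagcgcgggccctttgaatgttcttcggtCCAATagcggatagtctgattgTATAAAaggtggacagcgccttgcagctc
Hist1h4d: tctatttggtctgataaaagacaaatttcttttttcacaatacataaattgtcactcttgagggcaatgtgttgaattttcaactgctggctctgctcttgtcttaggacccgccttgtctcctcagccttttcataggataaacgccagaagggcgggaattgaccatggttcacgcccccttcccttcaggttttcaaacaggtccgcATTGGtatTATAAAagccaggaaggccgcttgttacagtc
The CpG dinucleotide, which Cxxc1 binds when unmethylated, occurred a median of 9 times in member promoters, against 6 in all promoters of the table. By class, the median was 11 in H1, 7 in H2a, 8 in H2b and 9.5 in H4. In H3 it was 6, the same as in all promoters.

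Histone genes averaged lower levels in the KO libraries than in the controls, with class medians between -1.03 and -0.65 on the log2 scale, but the libraries of a genotype differed from each other by as much and no member passed the test. Of the 69 members, 68 had at least 1 count and 67 passed the filter on low counts among 20389 tested genes. Hist3h2a had no count in any library, and Hist1h2aa, a testis-specific H2A gene, had 12 reads in KO 2 and none elsewhere. The log2 fold change (KO over control) was below 0 for 66 of the 67 (98.5%), against 52.4% of all tested genes. Its median was -0.85, with a range from -1.82 to 0.30, beside a median of -0.04 for all tested genes. After Benjamini-Hochberg adjustment over all tested genes in edgeR's quasi-likelihood fit, 0 members were called higher and 0 lower, where the background of called genes was 0.451% (0.270% higher and 0.181% lower). At an unadjusted p below 0.05, 23 members (34.3%) were lower and 0 higher, against 6.91% of all tested genes lower. DESeq2 called 6 members lower and 0 higher, against a background of 2.53% lower. Those 6 were Hist1h2bf, Hist2h2be, Hist1h2ad, Hist1h3g, Hist1h3d and Hist1h1c. Both KO libraries lay below both controls for 17 of 67 members (25.4%), close to the 24.0% of all tested genes.

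**Figure D1:**
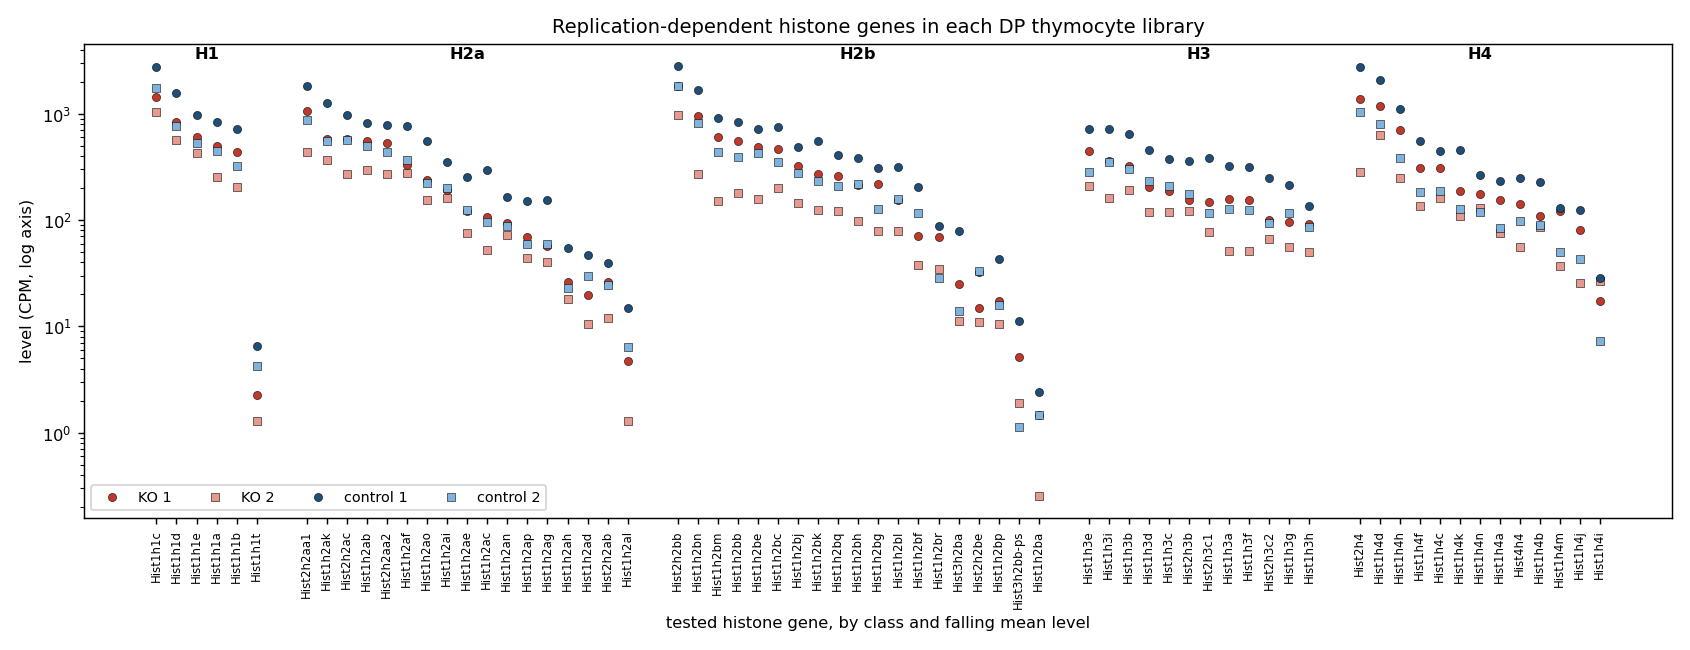
Level of each of the 67 tested histone genes (CPM, log axis) in KO 1, KO 2, control 1 and control 2, by class. Control 1 was the highest point for 66 genes and KO 2 the lowest for 63, with KO 1 and control 2 between them.

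**Figure D2:**
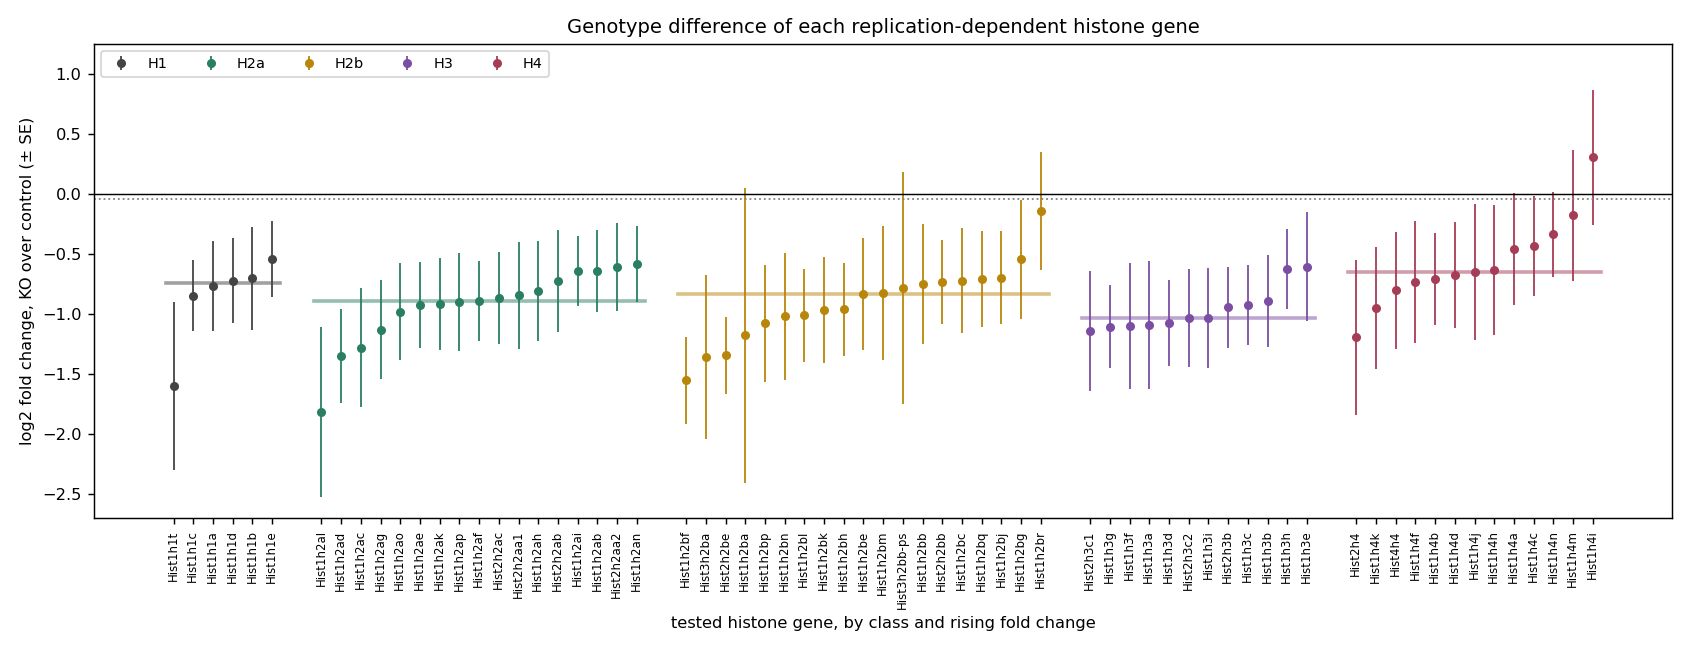
Fitted log2 fold change (KO over control) of each tested member with its SE, by class, with a horizontal bar at each class median and a dotted line at the median of all tested genes (-0.04). All points but Hist1h4i (0.30) lie below 0, and class medians run from -1.03 in H3 to -0.65 in H4.

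Counted together, the 69 genes summed to 22205 and 10996 CPM in KO 1 and KO 2, against 39439 and 19099 CPM in control 1 and control 2. KO 1 was thus above control 2, and KO 2 and control 1 were the extremes. The mean was 16600.3 ± 7926 CPM in KO and 29269 ± 14383 CPM in control libraries (SD, n = 2 each), a ratio of 0.567 (log2 -0.82). With 2 libraries against 2, the exact permutation test (two-sided, 6 splits) gave p = 0.667, and the smallest p it allows is 0.333. Histone genes took 2.13% and 1.17% of all counts in the KO libraries, against 3.86% and 1.90% in the controls. The ratio of KO 1 to KO 2 was 2.02 and that of control 1 to control 2 was 2.06. Without control 1, the log2 ratio of the sums was -0.20.

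The linker histones, which bind the DNA between nucleosomes, summed to 3824 and 2489.7 CPM in KO 1 and KO 2, against 6819 and 3814 CPM in control 1 and control 2. All 6 H1 genes had a log2 fold change below 0 (median -0.75). Of them, 2 (33.3%) had an unadjusted p below 0.05, against 6.91% of all tested genes lower. Hist1h1c, which encodes the somatic subtype H1.2 and lies at chr13:23738808-23740367, plus strand, had 1449 and 1033 CPM in KO 1 and KO 2, against 2723 and 1752 CPM in control 1 and control 2. Both KO libraries were below both controls (log2 fold change -0.85 ± 0.30 (SE), edgeR adjusted p = 0.253). It had the highest mean level per kilobase of annotated exon in its class. That rank depends on the annotated lengths, 1560 bases for Hist1h1c and 7425 for Hist1h1d. Of the 50-base windows of Hist1h1c, 8.54% occur in another annotated gene. Hist1h1d (H1.3) had 843 and 565 CPM in the KO libraries, against 1559 and 763 CPM in the controls, and KO 1 exceeded control 2 (log2 fold change -0.72 ± 0.35 (SE), edgeR adjusted p = 0.409). Hist1h1e (H1.4) had 604 and 431 CPM in the KO libraries, against 976 and 532 CPM in the controls, again with KO 1 above control 2 (log2 fold change -0.54 ± 0.32 (SE), edgeR adjusted p = 0.504). Its annotation overlaps Hist1h2be on the same strand, so reads of this stretch cannot be assigned with certainty. Hist1h1t, the testis subtype, was low, with 2.24 and 1.29 CPM in the KO libraries, against 6.47 and 4.27 CPM in the controls. Its libraries did not overlap between genotypes (log2 fold change -1.60 ± 0.70 (SE), edgeR adjusted p = 0.356).

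The H2a genes, which encode the histone that pairs with H2B in the nucleosome, summed to 4573 and 2558 CPM in KO 1 and KO 2, against 8471 and 4208 CPM in control 1 and control 2. All 17 tested members had a log2 fold change below 0 (median -0.89). Of them, 9 (52.9%) had an unadjusted p below 0.05, against 6.91% of all tested genes lower. Hist2h2aa1 (chr3:96245497-96246082, plus strand) had 1054 and 434 CPM in KO 1 and KO 2, against 1804 and 871 CPM in control 1 and control 2. KO 1 was above control 2, so the genotypes overlapped (log2 fold change -0.85 ± 0.44 (SE), edgeR adjusted p = 0.446). Of its 50-base windows, 89.2% occur in another of the 69 histone genes, Hist2h2aa2 being a near-identical copy, and its counts are uncertain. Hist1h2ak had 582 and 367 CPM in the KO libraries, against 1247 and 548 CPM in the controls, with KO 1 and control 2 close together (log2 fold change -0.92 ± 0.39 (SE), edgeR adjusted p = 0.338). Hist2h2ac, whose stem loop and promoter are printed above, had 573 and 271 CPM in the KO libraries, against 974 and 566 CPM in the controls (log2 fold change -0.87 ± 0.38 (SE), edgeR adjusted p = 0.356). Its KO 1 level also slightly exceeded control 2. The class extremes were Hist1h2al and Hist1h2an. The annotated pseudogene Hist1h2al, which lies apart from the Hist1 cluster at chr13:51202727-51203065, minus strand, had 4.74 and 1.29 CPM in the KO libraries, against 15.0 and 6.43 CPM in the controls (log2 fold change -1.82 ± 0.71 (SE), edgeR adjusted p = 0.305), with no overlap of the genotypes. Hist1h2an had 94.4 and 71.9 CPM in the KO libraries, against 163 and 87.0 CPM in the controls, with overlap (log2 fold change -0.58 ± 0.31 (SE), edgeR adjusted p = 0.457). The shares of 50-base windows found in other histone genes were 67.6% for Hist1h2al, 85.8% for Hist1h2an and 52.3% for Hist1h2ak. The counts of these genes are therefore uncertain too.

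The H2b genes summed to 6537 and 2670.3 CPM in KO 1 and KO 2, against 10615 and 5672 CPM in control 1 and control 2. All 19 members had a log2 fold change below 0 (median -0.83). Of them, 4 (21.1%) had an unadjusted p below 0.05, against 6.91% of all tested genes lower. Hist2h2bb (chr3:96269752-96270132, plus strand) had 1838 and 962 CPM in KO 1 and KO 2, against 2835 and 1830.0 CPM in control 1 and control 2. KO 1 and control 2 were nearly equal (log2 fold change -0.74 ± 0.35 (SE), edgeR adjusted p = 0.392). It overlaps other annotated genes on both strands, and all its 50-base windows also occur in another annotated gene, none of them in another of the 69 histone genes. Hist1h2bn had 951 and 269 CPM in the KO libraries, against 1667 and 809 CPM in the controls, and Hist1h2bm had 605 and 152 CPM in the KO libraries, against 904 and 436 CPM in the controls. In both, KO 2 was far below the 3 other libraries and KO 1 was above control 2 (log2 fold change -1.02 ± 0.53 (SE), edgeR adjusted p = 0.44 for Hist1h2bn, and log2 fold change -0.82 ± 0.56 (SE), edgeR adjusted p = 0.578 for Hist1h2bm). Of the 50-base windows of Hist1h2bn, 86.4% occur in another of the 69 histone genes, so its counts are uncertain. Hist1h2bf (chr13:23573736-23574196, minus strand) had 70.9 and 37.9 CPM in KO 1 and KO 2, against 205 and 115 CPM in control 1 and control 2. Both KO libraries were below both controls, and this was the lowest fold change of the class and the smallest p of any member (log2 fold change -1.55 ± 0.36 (SE), edgeR adjusted p = 0.109). Of the 50-base windows of Hist1h2bf, 65.8% occur in another of the 69 histone genes, so its counts are uncertain. At the other end, Hist1h2br had 69.1 and 34.7 CPM in the KO libraries, against 86.8 and 28.4 CPM in the controls (log2 fold change -0.14 ± 0.49 (SE), edgeR adjusted p = 0.943), and its KO libraries lay between the controls. For Hist1h2br the share of windows found in other histone genes was 88.7%, so its counts are uncertain too. Hist2h2be, named here after its values were seen, encodes an H2B best known from mouse olfactory neurons, where it is made without replication. It had 14.9 and 10.9 CPM in the KO libraries, against 32.4 and 33.1 CPM in the controls (log2 fold change -1.35 ± 0.32 (SE), edgeR adjusted p = 0.117). It was the member whose 2 controls were closest, the single member with control 2 above control 1, and none of its 50-base windows occurs in another annotated gene.

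The H3 genes summed to 2417 and 1272 CPM in KO 1 and KO 2, against 4875 and 2205 CPM in control 1 and control 2. They had the lowest median log2 fold change (-1.03). Of the 12, 8 (66.7%) had an unadjusted p below 0.05, against 6.91% of all tested genes lower. Hist1h3e (chr13:23561534-23562369, minus strand), which encodes H3.2, had 442 and 209 CPM in KO 1 and KO 2, against 710.4 and 280.5 CPM in control 1 and control 2. KO 1 exceeded control 2 (log2 fold change -0.61 ± 0.45 (SE), edgeR adjusted p = 0.623), and this was the highest fold change of the class. Hist1h3i, which encodes H3.1, had 356 and 162 CPM in the KO libraries, against 711 and 348 CPM in the controls (log2 fold change -1.03 ± 0.42 (SE), edgeR adjusted p = 0.319). Hist1h3b had 321 and 190.2 CPM in the KO libraries, against 649.7 and 301 CPM in the controls (log2 fold change -0.89 ± 0.38 (SE), edgeR adjusted p = 0.345). In both genes KO 1 and control 2 were almost level. The shares of 50-base windows found in other histone genes were 73.4% for Hist1h3e, 87.6% for Hist1h3i and 60.4% for Hist1h3b. The counts of these genes are therefore uncertain. Hist2h3c1 of the Hist2 cluster, which encodes H3.2, had 148 and 77.6 CPM in the KO libraries, against 384 and 116 CPM in the controls and the lowest fold change of the class (log2 fold change -1.14 ± 0.50 (SE), edgeR adjusted p = 0.356). Its control libraries differed from each other more than KO 1 did from control 2, and its sequence is shared in full with other annotated genes.

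The H4 genes, which encode the same H4 protein, summed to 4854 and 2006 CPM in KO 1 and KO 2, against 8659 and 3199 CPM in control 1 and control 2. None had an unadjusted p below 0.05, where 6.91% of all tested genes were lower at that cut. In none did both KO libraries lie below both controls, against 24.0% of all tested genes. Hist2h4 (chr3:96261682-96263311, minus strand) had 1370.1 and 285 CPM in KO 1 and KO 2, against 2751 and 1039.7 CPM in control 1 and control 2. KO 2 was far below the rest and KO 1 was above control 2 (log2 fold change -1.20 ± 0.65 (SE), edgeR adjusted p = 0.46). Only 1.01% of its 50-base windows recur in another gene. Hist1h4d had 1168 and 629.8 CPM in the KO libraries, against 2080.1 and 791 CPM in the controls (log2 fold change -0.68 ± 0.44 (SE), edgeR adjusted p = 0.56), and Hist1h4h had 709 and 251 CPM in the KO libraries, against 1112 and 379 CPM in the controls (log2 fold change -0.64 ± 0.54 (SE), edgeR adjusted p = 0.678). In both, KO 1 was well above control 2. Hist1h4i was the single member with a fold change above 0. It had 17.2 and 26.5 CPM in the KO libraries, against 28.6 and 7.21 CPM in the controls, so that KO 2 was above KO 1 and both lay between the controls (log2 fold change 0.30 ± 0.57 (SE), edgeR adjusted p = 0.886). Its stem loop core is the one it shares with Hist2h4, the H4 gene at the other end of the class.

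**Figure D3:**
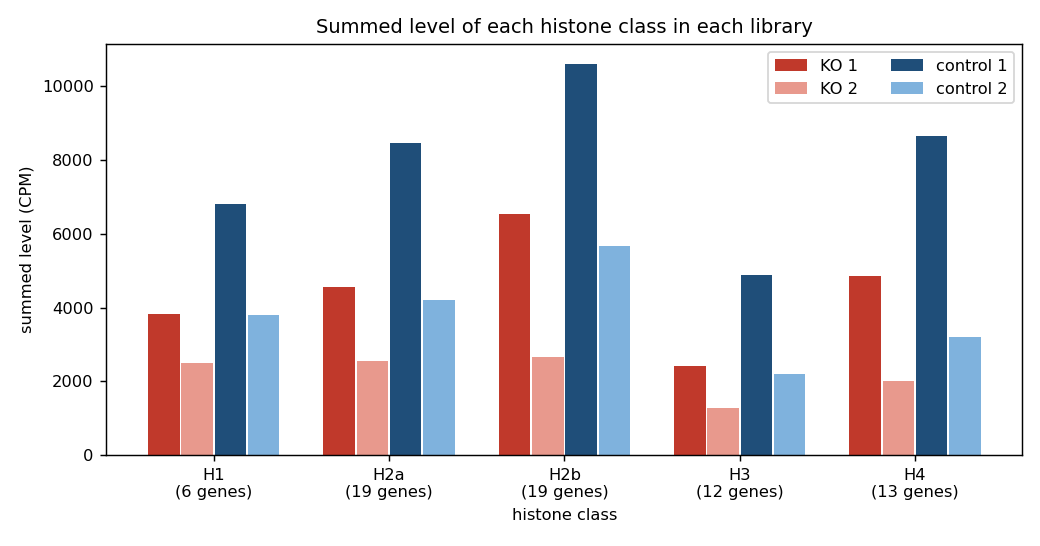
Summed level of each histone class (CPM) in KO 1, KO 2, control 1 and control 2. Within every class control 1 is the tallest bar and KO 2 the shortest.

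By cluster, the 54 tested Hist1 genes on chromosome 13 had a median log2 fold change of -0.83, the 10 Hist2 genes on chromosome 3 of -0.91, and the 2 tested Hist3 genes on chromosome 11 of -1.07. Hist1 genes summed to 16224 and 8416 CPM in KO 1 and KO 2, against 28887 and 13806 CPM in control 1 and control 2. Hist2 genes summed to 5808 and 2510.1 CPM in KO 1 and KO 2, against 10212 and 5180.3 CPM in control 1 and control 2. Both sums had the order of the whole family. Hist3h2ba had 25.1 and 11.2 CPM in the KO libraries, against 79.5 and 14.0 CPM in the controls (log2 fold change -1.36 ± 0.68 (SE), edgeR adjusted p = 0.426). Hist3h2bb-ps had 5.17 and 1.88 CPM in the KO libraries, against 11.2 and 1.13 CPM in the controls (log2 fold change -0.78 ± 0.97 (SE), edgeR adjusted p = 0.799). For both, control 1 alone was high, and control 2 was close to or below the KO libraries. Hist4h4, the single gene on chromosome 6, had 143 and 56.0 CPM in the KO libraries, against 249.9 and 97.5 CPM in the controls (log2 fold change -0.80 ± 0.49 (SE), edgeR adjusted p = 0.521), with KO 1 above control 2.

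Per kilobase of annotated exon, H2b genes summed to 12624 and 5250.2 CPM per kb in KO 1 and KO 2, against 20672 and 11188 in control 1 and control 2. H2a genes summed to 9241.8 and 5341 CPM per kb in the KO libraries, against 17183 and 8585 in the controls. H2b was thus the highest class per kilobase in every library but KO 2, where H2a was slightly above it. H1 genes had the lowest sum on this scale, 2606.5 and 1583 CPM per kb in the KO libraries, against 4564 and 2534 in the controls. These ranks depend on annotated exon lengths, which ran from 312 to 7425 bases. The longest was that of Hist1h1d, an H1 gene, with 4884 bases annotated after its stem loop. On the share of histone counts, H1 took 17.2% and 22.6% in KO 1 and KO 2, against 17.3% and 19.97% in control 1 and control 2, and H4 took 21.9% and 18.2% in the KO libraries, against 22.0% and 16.8% in the controls. H4 had its larger shares in KO 1 and control 1, the library with the higher histone sum in each genotype, and H1 had its larger shares in KO 2 and control 2.

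The order of the libraries was nearly the same for every member. Control 1 was the highest library for 66 of 67 members, against 28.1% of all tested genes, and KO 2 the lowest for 63 (94.0%), against 18.7%. KO 1 was below control 1 in all 67, and KO 2 below control 2 in 63, but KO 1 was below control 2 in 17. Within genotypes, the median log2 ratio of KO 1 to KO 2 was 0.94 and that of control 1 to control 2 was 1.11, both larger in size than the median difference between genotypes. Over all tested genes these medians were -0.04 and 0. Without control 1, the shallowest library, 50 of 67 members were below 0 and the median was -0.21. The class medians were then -0.18 for H1, -0.23 for H2a, -0.22 for H2b, -0.28 for H3 and 0.31 for H4. Without KO 2, the median over the members was -0.46.

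**Figure D4:**
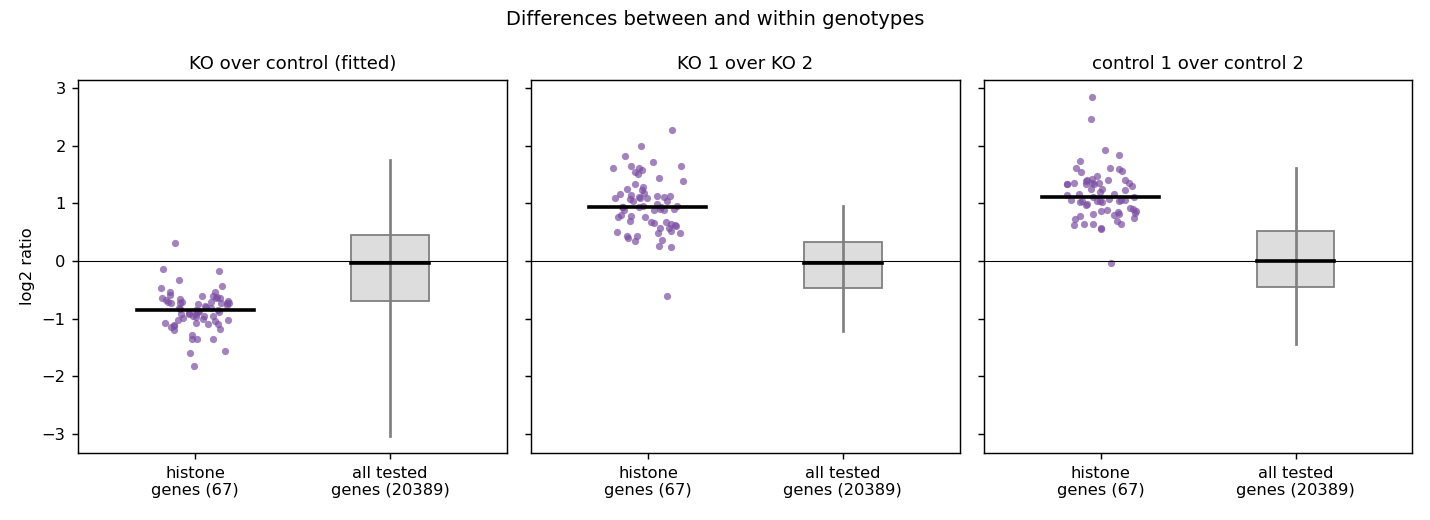
Log2 ratios of the 67 histone genes (points, with the median as a bar) beside all 20389 tested genes (box between the quartiles, line from the 5th to the 95th percentile, bar at the median). The fitted ratio of KO over control has a histone median of -0.85, KO 1 over KO 2 of 0.94, and control 1 over control 2 of 1.11.

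Other genes of S phase, which copy the DNA or supply its precursors, were set beside the histone genes. The 24 of the list, among them the Mcm helicase subunits, Pcna, Rrm1 and Uhrf1, summed to 4744 and 2524 CPM in KO 1 and KO 2, against 3762 and 2469 CPM in control 1 and control 2. Like the histone genes they were lower in KO 2 than in KO 1 and lower in control 2 than in control 1, in all 24 genes each. Between genotypes, 18 of 24 had a log2 fold change above 0 (median 0.33), with 0 called by edgeR's quasi-likelihood test and E2f1, named after its values were seen, at an unadjusted p of 0.0306. Mcm6 had 506 and 302 CPM in the KO libraries, against 311 and 222 CPM in the controls (log2 fold change 0.60 ± 0.30 (SE), edgeR adjusted p = 0.419). Uhrf1, which recognises hemimethylated DNA behind the fork, had 595 and 239 CPM in the KO libraries, against 514 and 253 CPM in the controls (log2 fold change 0.12 ± 0.44 (SE), edgeR adjusted p = 0.945). The genotypes did not separate in either.

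Relative to the summed S phase genes, the libraries of each genotype were closer together than on the CPM scale, and the genotypes no longer overlapped. This ratio was chosen after the values were seen, so it is given with no test. The histone sum was 4.68 and 4.36 times the S phase sum in KO 1 and KO 2, against 10.5 and 7.74 times in control 1 and control 2. Both KO libraries were below both controls, with means of 4.52 ± 0.229 in KO and 9.11 ± 1.94 in control libraries (SD, n = 2 each) and a ratio of 0.496 between them. The same held for each class: the H3 sum, for instance, was 0.509 and 0.504 times the S phase sum in the KO libraries, against 1.30 and 0.893 times in the controls, and the H4 sum was 1.02 and 0.795 times in the KO libraries, against 2.30 and 1.30 times in the controls. Taken member by member, 62 of 67 (92.5%) were below both controls in both KO libraries on this scale, against 19.5% of all tested genes. The members that were not were Hist3h2bb-ps, Hist1h4m, Hist1h4n, Hist1h2br and Hist1h4i. When each of the 24 S phase genes was used alone as the divisor, both KO libraries were below both controls for 21. The genotypes overlapped with Ccna2, Cdk2 or Rrm2 as the divisor, all named after their values were seen. These were the 3 S phase genes whose own levels were lower in both KO libraries than in both controls. Their log2 fold changes were -0.49, -0.39 and -0.63. With libraries scaled to equal S phase sums in the edgeR fit, an alternative added after the data were seen, the median over members was -1.02 beside -0.18 for all tested genes, and 0 members were called.

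**Figure D5:**
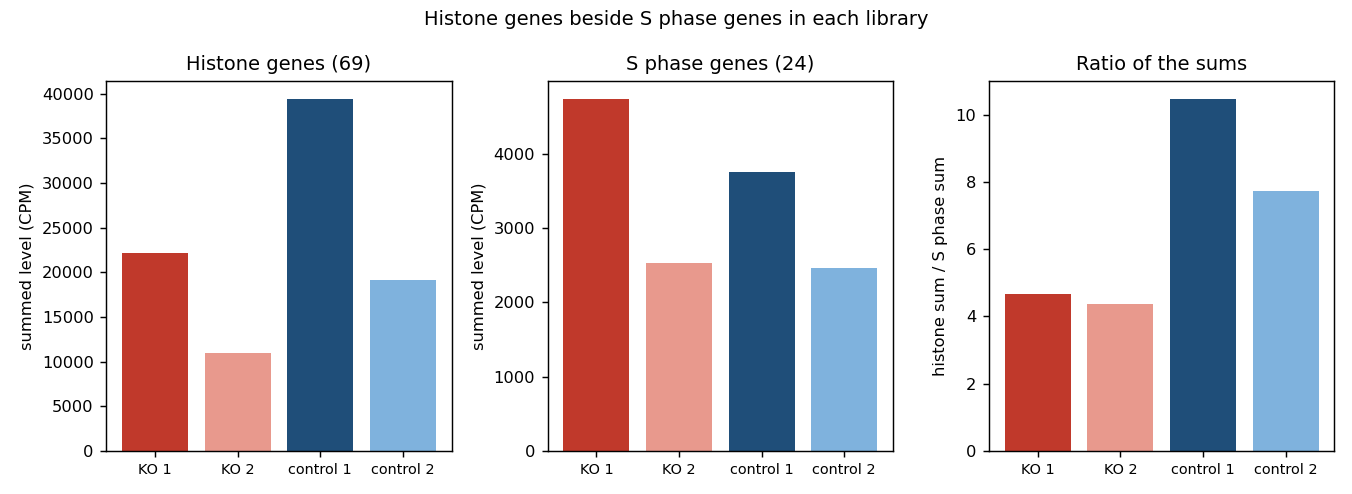
Summed level of the 69 histone genes and of the 24 S phase genes (CPM), and the ratio of these sums, in KO 1, KO 2, control 1 and control 2. The sums overlap between genotypes, and the ratio is 4.68 and 4.36 in the KO libraries, against 10.5 and 7.74 in the controls.

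Genes that transcribe and process histone mRNA were not called in either direction (0 of 18 by edgeR's quasi-likelihood test). At an unadjusted p below 0.05 there were also 0, against 13.9% of all tested genes in either direction. Of the 18 log2 fold changes, 12 were above 0 and 6 below, with a median of 0.07. DESeq2 also called 0 genes in this list, and 0 in those of the S phase genes, variants and chaperones. Slbp, which binds the stem loop, had 287 and 185 CPM in KO 1 and KO 2, against 205 and 181 CPM in control 1 and control 2. KO 1 was highest and the other libraries were near each other (log2 fold change 0.29 ± 0.26 (SE), edgeR adjusted p = 0.7). The histone sum was 77.3 and 59.6 times the Slbp level in the KO libraries, against 192 and 105.8 times in the controls. Relative to the summed replication-independent variants it was 11.03 and 5.85 times in the KO libraries, against 17.5 and 9.78 times in the controls, so that KO 1 exceeded control 2 and the genotypes overlapped on this ratio. Npat, the coactivator of the clusters, had 98.6 and 67.3 CPM in the KO libraries, against 92.8 and 82.1 CPM in the controls (log2 fold change -0.08 ± 0.26 (SE), edgeR adjusted p = 0.942), with the KO libraries on either side of the controls. Ybx1, an mRNA-binding protein of the list, had 545 and 353 CPM in the KO libraries, against 403 and 326 CPM in the controls (log2 fold change 0.30 ± 0.27 (SE), edgeR adjusted p = 0.696). Srrt (Ars2), which links the cap-binding complex to histone mRNA processing, had 426 and 325 CPM in the KO libraries, against 403 and 328 CPM in the controls (log2 fold change 0.04 ± 0.24 (SE), edgeR adjusted p = 0.969). Neither separated the genotypes. Pou2f1, the octamer factor, was named after its values were seen and had 141 and 161 CPM in the KO libraries, against 178 and 212 CPM in the controls (log2 fold change -0.37 ± 0.22 (SE), edgeR adjusted p = 0.516), with both KO libraries below both controls.

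Of 12 replication-independent variants, 0 were called, 6 had a log2 fold change above 0 and 6 below, and the median was 0.03. H2afx is in this list although the stem loop was found in its transcript, and it was named after its values were seen. It had 332 and 206 CPM in KO 1 and KO 2, against 462 and 234 CPM in control 1 and control 2 (log2 fold change -0.37 ± 0.35 (SE), edgeR adjusted p = 0.717). Like most replication-dependent members, H2afx was highest in control 1 and lowest in KO 2. H2afz, the H2A.Z gene, had 444 and 294 CPM in the KO libraries, against 368 and 249 CPM in the controls (log2 fold change 0.26 ± 0.29 (SE), edgeR adjusted p = 0.771), with the 2 genotypes interleaved. H3f3b, an H3.3 gene, had 318 and 453 CPM in the KO libraries, against 424 and 556 CPM in the controls (log2 fold change -0.34 ± 0.26 (SE), edgeR adjusted p = 0.629), and H2afy, the macroH2A1 gene, had 330.3 and 330.1 CPM in the KO libraries, against 400.3 and 362 CPM in the controls (log2 fold change -0.21 ± 0.22 (SE), edgeR adjusted p = 0.751). H3f3b overlapped between genotypes, and for H2afy both KO libraries were below both controls. Cenpa, the centromeric H3, was the variant with an unadjusted p below 0.05, with 39.5 and 30.0 CPM in the KO libraries, against 57.6 and 49.9 CPM in the controls (log2 fold change -0.63 ± 0.27 (SE), edgeR adjusted p = 0.351). It was named after its values were seen. The sum of the variants was 2013 and 1879 CPM in KO 1 and KO 2, against 2259 and 1954 CPM in control 1 and control 2, so that the 4 libraries lay closer together than for the replication-dependent genes.

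Of 22 histone chaperones, which carry histones to and from DNA, 0 were called, 14 had a log2 fold change above 0 and the median was 0.14. Atrx, which deposits H3.3 with Daxx, had 983 and 870.4 CPM in the KO libraries, against 916 and 1057 CPM in the controls (log2 fold change -0.09 ± 0.23 (SE), edgeR adjusted p = 0.92). Supt16, a FACT subunit, had 865 and 498 CPM in the KO libraries, against 564 and 559 CPM in the controls (log2 fold change 0.28 ± 0.29 (SE), edgeR adjusted p = 0.745). Both overlapped between genotypes. Nap1l1 and Ipo4, named after their values were seen, were the chaperones with an unadjusted p below 0.05, and both KO libraries exceeded both controls in each. Nap1l1 had 591 and 309.5 CPM in the KO libraries, against 282 and 260.2 CPM in the controls (log2 fold change 0.73 ± 0.31 (SE), edgeR adjusted p = 0.337), and Ipo4, an importer of H3 and H4, had 35.0 and 17.1 CPM in the KO libraries, against 12.8 and 6.95 CPM in the controls (log2 fold change 1.41 ± 0.46 (SE), edgeR adjusted p = 0.227).

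Members grouped by sequence features that bear on counting had similar median fold changes. A median of 54.1% of the 50-base windows of a member occur in another annotated gene, either a near-identical copy or a gene annotated over the same place, and the sources used here do not state how reads with several matches were counted. The 8 tested members with under 10% of windows shared had a median log2 fold change of -0.83, with control 1 highest in 7 and KO 2 lowest in 8. These 8 were Hist1h1a, Hist1h1b, Hist1h1c, Hist1h1d, Hist1h1t, Hist2h2be, Hist2h4 and Hist4h4. They are mostly H1 genes and hold no H2a or H3 gene, so shared sequence and class cannot be told apart here. The 24 with 10 to 50% had a median of -0.80, and the 35 with 50% or more had -0.89. Members with a stem loop found (43 tested) had a median of -0.85 and those without (24) of -0.80. The 21 whose annotated transcript runs over 100 bases past the stem loop had -0.85, and the 22 with 100 bases or fewer had -0.86. Of the 69 genes, 25 overlap another annotated gene, 22 of them on the opposite strand, and the strand setting of the counting is not stated, so reads of such pairs cannot be told apart. The 23 tested members with such an overlap had a median of -0.87 and the other 44 of -0.81. Among other tested genes of like exon length (437 to 966 bases), 789 had a median of -0.05. The 72 of these with at least 20 CPM had a median of 0.17, with control 1 highest in 15.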

How the data were processed

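Bulk RNA-seq counts of 2 Cxxc1 KO and 2 control DP thymocyte libraries were used. Per the labels' protocols, TRIzol was used for total RNA, and 10 ng of it entered a SMART-seq Standard kit. The sources used here do not state how cDNA was primed, which annotation and strand setting were used for counting, or how reads with several matches were treated. The deposited tables hold whole-number counts per gene symbol, made from a HISAT2 alignment per the file headers. The tools in the submitters' processing notes are featureCounts 2.0.8, HISAT2 2.2.1, cutadapt 4.0 and edgeR 3.36.0, with mm10 as the build. No molecular identifiers are named, so counts are reads.

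Tests were run here in edgeR 4.0.16 (R 4.3.3, limma 3.58.1). Genes passing filterByExpr (minimum count 10, minimum total 15), 20389 in all, were scaled by TMM and fitted by glmQLFit and glmQLFTest with genotype as the only term. Two-sided p-values were adjusted by Benjamini and Hochberg's method over all tested genes, with calls made below 0.05. The floor of 3 counts was 0.0861 and 0.0843 CPM in KO 1 and KO 2, and 0.252 and 0.0865 CPM in control 1 and control 2, for counting error only. The alternatives were DESeq2 1.42.0 (396 genes without an adjusted p), a likelihood ratio test, other scalings and filters, a replicate term, and leaving out each library. Ratios of single libraries add 0.5 CPM before taking the log2.

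Named members are the 3 with the highest mean CPM and the lowest and highest fold change in each class, the top 2 of Hist2, Hist3 and Hist4, and, in other lists, the top 2, with Slbp, Npat, H2afz and Cxxc1. The members and lists were chosen with earlier results of these data known. The labels name no shared batch and do not say whether replicate numbers pair the libraries. The correlation of deviations from genotype means was -0.00956 over all tested genes and 0.0902 over the 67 members. It cannot tell whether a shift shared by replicates of the same number touched part of the genes. Replicate 1 exceeded replicate 2 in 66 of 67 members and all 24 S phase genes, in each genotype. A shared cause was not tested. Promoters are credited to RefSeq (GRCm38.p6) and were matched by older symbols, and transcripts to GENCODE vM21.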

Additional observations from a re-analysis of the deposited data

How the results depend on the processing

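Median log2 fold changes of the classes and clusters kept their direction and stayed within the replicate spread under other scalings, filters and tests, and so did ratios of sums under other scalings, though sums were not recomputed under other filters and tests. The count of called members, 0, moved with the filter and the test: 26 of 68 tested with no filter (1.28% of 30613 genes called lower, 920 called in all), 1 (Hist1h2bf) of 64 with a mean of at least 5 CPM (1.1% of 11023 lower, 231 in all), 6 of 67 with DESeq2 (2.53% lower, 947 in all) and 3 of 67 with the likelihood ratio test (2.65% lower, 997 in all), all of these members lower. Scaling to S phase genes called 52 genes and 0 members. A single chaperone (1) was called with no filter. A block on the replicate number was also fitted, though the labels do not say that the numbers pair the libraries. It called 1599 genes (7.84% of 20389 in either direction, 3.26% lower) and 51 of 67 members (all lower). In either direction, it called 2 of 22 chaperones and 3 of 24 S phase genes.

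Leaving out 1 library at a time, all called genes numbered 9 to 619, called members 0 to 26 (26 without control 2, where 1.29% of genes were called lower), chaperones 0 to 1 and S phase genes 0 to 1. Medians ran from -1.18 to -0.18 in H1, -1.33 to -0.23 in H2a, -1.47 to -0.28 in H3, -1.24 to 0.31 in H4 and -1.90 to 1.01 in Hist3, and the Hist3 sum from -2.07 to 0.52. The highest of each was without control 1, where the H4 sum was 0.10 and the fold changes of Hist1h4d (0.18), Hist1h4h (0.34) and Hist3h2ba (0.37) were above 0. The lone sample left is assumed to vary like the other genotype. The cause was not tested. Histone genes held 773714 and 391360 reads in KO 1 and KO 2, and 469124 and 662015 in control 1 and control 2.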
